A study of Rattus norvegicus with 20 samples.

Results

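The genes Acly, Me1, Acaca, Acacb, Fasn, Elovl6, Fads1, Fads2, Gpam and Dgat2 encode enzymes that make fatty acids and esterify them in liver. They were taken by gene symbol: every probe set that the platform annotation ties to 1 of these symbols and to no other gene was used, whatever its value. These rules gave 16 probe sets for the 10 genes, out of 31042 probe sets tested and 14217 genes with such a probe set. Me1, Acaca, Fasn, Elovl6, Gpam and Dgat2 have 2 probe sets each, and Acly, Acacb, Fads1 and Fads2 have 1 each.

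Liver RNA of Wistar Han rats at postnatal day 4 was measured on 20 Affymetrix arrays. The study tested PBDE-47, a brominated diphenyl ether once used as a flame retardant, with gavage dosing that began on gestation day 6. The groups, of 5 arrays each, received corn oil alone (vehicle), 0.1, 15 or 50 mg/kg per day, and all of them received the same volume of 5 mL/kg. The labels give the sex as female and tie dosing to timed-mated dams, but do not say whether a liver was a dam's or a pup's, whether each array stands for its own animal, or which livers shared a litter. The spread that p-values rest on is that between these samples and may be technical, and the number of arrays limits the precision. In a piece of whole tissue, fewer cells of a type and less RNA per cell cannot be told apart. Values are deposited log2 values, so a difference of 1 is a doubling. Levels of different probe sets are not set against each other, since each probe set has its own brightness.

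In fatty acid synthesis, citrate leaves the mitochondrion and is split by ATP citrate lyase (Acly) into acetyl-CoA, which acetyl-CoA carboxylase (Acaca) turns into malonyl-CoA and fatty acid synthase (Fasn) joins into palmitate, at the cost of NADPH that malic enzyme (Me1) helps to supply. Elongases and desaturases (Elovl6, Fads1, Fads2) then lengthen and unsaturate the chain, and acyltransferases (Gpam, Dgat2) place it on glycerol. Most of these genes are textbook targets of the sterol-sensing factor SREBP-1c, and several also answer to the carbohydrate-sensing factor ChREBP and to thyroid hormone. Me1 is in addition a known target of the oxidative stress factor NRF2, which binds antioxidant response elements. In suckling rodents, whose milk is rich in fat, hepatic lipogenesis is known to be low before weaning.

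Some arrays stood apart, and the results that rest on them are given with and without them. Vehicle replicate 1 lay below all 4 other vehicle arrays for 8 of the 16 lipogenic probe sets and above them for 4, where across the array 22.9% of probe sets lay below and 22.1% above. Hepatocyte markers were bright on every array, with a list mean of 14.17 to 14.29 over 6 of 7 markers. The fetal liver markers Afp (14.21 to 14.34), Igf2 (13.14 to 13.69) and H19 (13.99 to 14.22) were also bright on every array. The others of that list, Gpc3 and Dlk1, read 8.27 to 9.83 and 5.46 to 8.08. Transcripts of neighbouring tissues varied from array to array and were spread unevenly over the dose groups. The mean of 10 skeletal muscle markers was 4.14 to 9.46 in vehicle, 4.29 to 9.91 at 0.1 mg/kg, 4.28 to 9.85 at 15 mg/kg and 4.45 to 7.94 at 50 mg/kg. It lay over 2 log2 units above the lowest array on vehicle replicate 2, on replicates 1, 4 and 5 at 0.1 mg/kg, on replicate 3 at 15 mg/kg and on replicates 1, 3 and 4 at 50 mg/kg. The mean of 10 exocrine pancreas markers ranged from 4.01 to 7.14 and was that high on replicate 2 at 0.1 mg/kg and replicates 3 and 5 at 15 mg/kg. The brown fat list, Ucp1 and Cidea, was that high on those same 15 mg/kg arrays, where Ucp1 read 8.22 and 8.01. The mean of 7 measured adipocyte markers of 8 ran from 6.14 to 6.96. It was highest on the same replicates 3 and 5 at 15 mg/kg (6.96 and 6.85). Together 10 arrays carried muscle, pancreas or brown fat transcripts. They were 3 at 50 mg/kg, 2 at 15 mg/kg, 4 at 0.1 mg/kg and 1 in vehicle. Markers of Kupffer cells, the liver's macrophages, were lower at 50 mg/kg (list mean 9.36 to 9.70 over 6 of 8 markers) than in vehicle (10.00 to 10.17). The erythroid list (4 of 6 markers) ran from 8.43 to 10.22 at 50 mg/kg and from 9.38 to 10.20 in vehicle. The part of these other cells in the results below was not tested beyond leaving out the arrays named here.

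The sequence before the transcription start was read for the 6 of 10 members that the RefSeq promoter table of the GRCr8 assembly holds. It is shown for Me1, the member that rose with dose, for Gpam, which carries the same kind of core, and for Acly and Fads1, which followed Fasn across arrays. Each run is the 250 bases before the annotated start, read 5′ to 3′ along the gene's strand, with capitals for antioxidant response element cores (TGACNNNGC) and NF-Y boxes (CCAAT, or ATTGG on the other strand). The Me1 window is chr8:96540245-96540494 (minus strand), the Gpam window chr1:264175912-264176161 (minus strand), the Acly window chr10:85963632-85963881 (minus strand) and the Fads1 window chr1:216252442-216252691 (plus strand).
Me1: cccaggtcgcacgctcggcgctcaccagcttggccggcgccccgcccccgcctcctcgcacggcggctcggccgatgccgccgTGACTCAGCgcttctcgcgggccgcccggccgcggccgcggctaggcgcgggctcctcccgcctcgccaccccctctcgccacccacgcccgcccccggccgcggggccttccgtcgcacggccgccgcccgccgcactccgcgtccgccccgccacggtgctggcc
Gpam: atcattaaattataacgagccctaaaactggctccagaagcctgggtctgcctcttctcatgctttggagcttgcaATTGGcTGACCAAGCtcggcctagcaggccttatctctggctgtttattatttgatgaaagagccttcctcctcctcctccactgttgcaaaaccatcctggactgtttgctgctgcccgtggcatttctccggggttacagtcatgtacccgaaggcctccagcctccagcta
Acly: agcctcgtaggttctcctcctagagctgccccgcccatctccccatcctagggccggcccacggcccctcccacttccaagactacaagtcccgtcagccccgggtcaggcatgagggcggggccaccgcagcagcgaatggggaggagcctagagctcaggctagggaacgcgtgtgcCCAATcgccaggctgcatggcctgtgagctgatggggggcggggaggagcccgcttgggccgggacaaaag
Fads1: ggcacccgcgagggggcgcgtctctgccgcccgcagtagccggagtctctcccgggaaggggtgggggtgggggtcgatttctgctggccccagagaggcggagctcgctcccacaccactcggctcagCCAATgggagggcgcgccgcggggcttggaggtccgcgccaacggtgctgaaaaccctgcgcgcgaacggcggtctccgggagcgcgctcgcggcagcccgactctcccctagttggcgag
The Me1 window holds TGACTCAGC from 167 to 159 bases before the start and is 83.2% G and C. The Gpam window holds TGACCAAGC from 168 to 160 bases before the start, next to but not overlapping its ATTGG. Me1 and Gpam were the 2 of 6 members with such a core, which 10.1% of 33469 RefSeq promoter windows of the same length hold on either strand. The NF-Y box was in 4 of 6 members (Acly, Acacb, Fads1 and Gpam) and in 34% of all windows. Other motifs were common or not found in these windows. The GC box GGGCGG lay in 4 of 6 (30.5% of all windows), the dioxin response element core GCGTG in Acly and Me1 (25.9%), and the sterol regulatory element TCACNCCAC (0.974%), the E-box CACGTG (5.59%) and TATAAA (12.9%) in 0 of 6. The GC boxes and GCGTG cores of Acly and Me1 are left in lower case. A match is a run of letters, not a shown binding site.

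The highest dose was set against vehicle to ask which of these enzymes differ in transcript level. Me1 rose on both of its probe sets, by 1.78-fold and 1.80-fold, and none of the other 9 genes passed the test. Of the 16 lipogenic probe sets, 2 rose, 0 fell and 14 did not pass an adjusted p of 0.05 with limma, while 0.586% of all probe sets rose and 0.934% changed either way. At an unadjusted p under 0.05 there were 7 of the 16, beside 4041 of 31042. Without vehicle replicate 1 there were 4 (both Me1 probe sets, Elovl6 1388108_at and Fads1), beside 3713. Positive differences were seen for 12 of the 16 probe sets. The median log2 change of the 16 was 0.11, and that of all probe sets was 0.01. Without vehicle replicate 1 these medians were 0.08 and 0.01. Acaca 1370893_at and both Fasn probe sets were then negative (-0.05, -0.23 and -0.25), and Gpam 1369758_at was positive (0.03). The groups did not overlap for the same 2 probe sets, both of Me1, where 2.96% of all probe sets did not overlap.

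**Figure D1:**
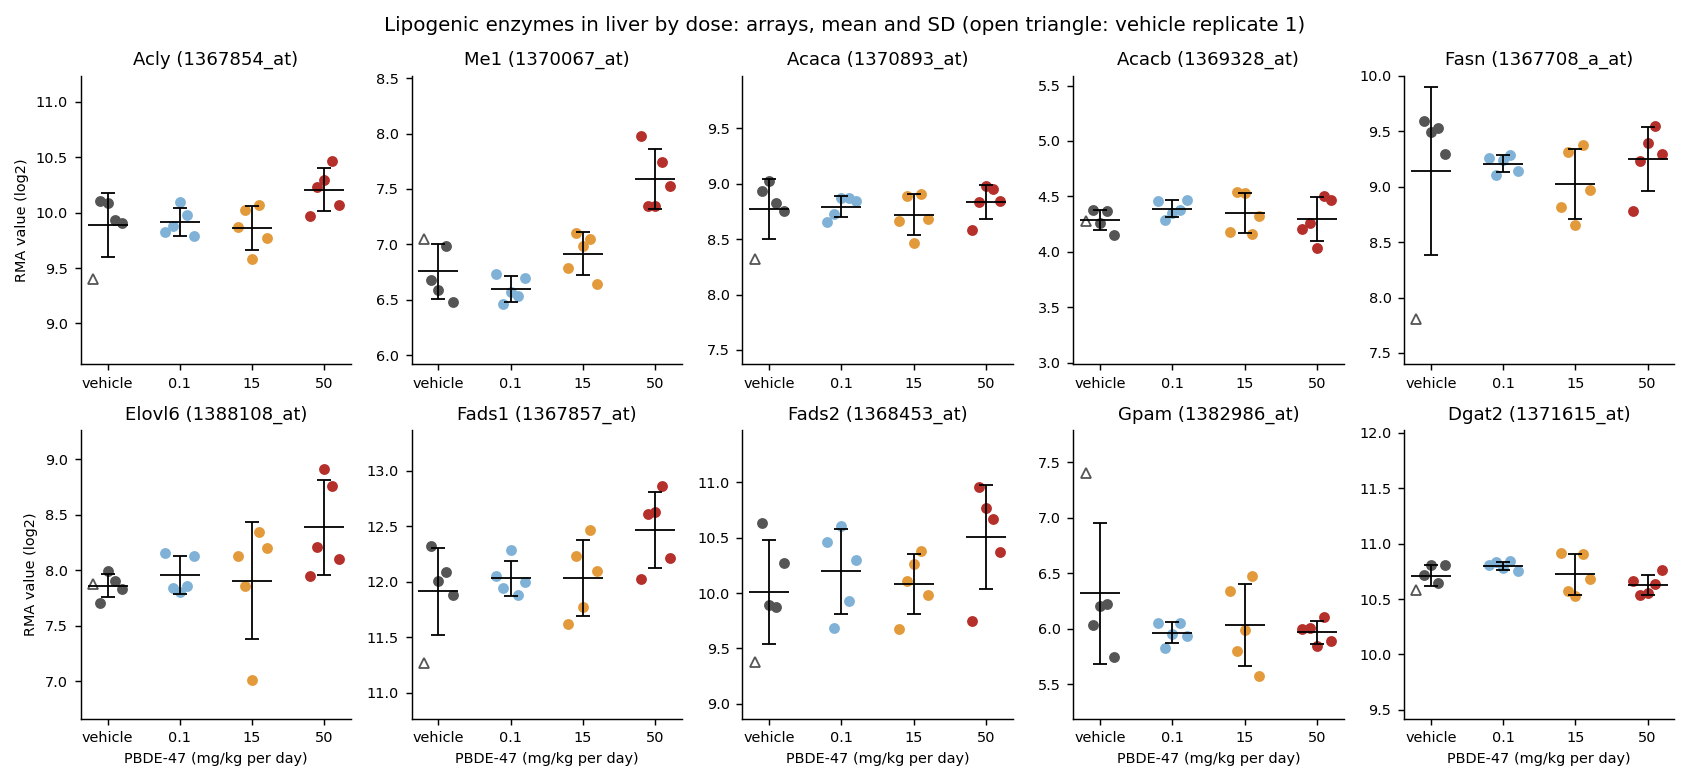
Deposited log2 values of the 10 lipogenic genes (the brighter probe set of each) on every array, by dose of PBDE-47. Dots are arrays, bars are the mean and SD of 5 arrays, and the open triangle is vehicle replicate 1; every panel spans the same range of log2 units. For Me1 all 5 arrays at 50 mg/kg lie above all 5 vehicle arrays, and for the other genes the groups overlap.

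Malic enzyme converts malate to pyruvate in the cytosol and yields NADPH. Its brighter probe set, 1370067_at, read 7.04, 6.68, 6.59, 6.98 and 6.48 in vehicle livers. It read 6.73, 6.46, 6.57, 6.53 and 6.69 at 0.1 mg/kg and 6.79, 7.10, 6.99, 7.05 and 6.64 at 15 mg/kg. At 50 mg/kg it read 7.98, 7.35, 7.35, 7.75 and 7.53, so that every array at this dose lay above every other array. The group means were 6.76 ± 0.25 in vehicle, 6.60 ± 0.11 at 0.1 mg/kg, 6.91 ± 0.19 at 15 mg/kg and 7.59 ± 0.27 at 50 mg/kg (SD, n = 5 each). The vehicle, 0.1 and 15 mg/kg groups overlapped one another. At 50 mg/kg against vehicle Me1 rose 1.78-fold (log2 change 0.83, SE 0.13, limma adjusted p = 0.00218), the 38th smallest p among all probe sets.

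The dimmer Me1 probe set, 1370870_at, gave the same picture. It read 7.54, 6.98, 6.85, 7.45 and 7.25 at 50 mg/kg, against 6.80, 6.03, 6.28, 6.54 and 6.21 in vehicle. All 5 arrays at 50 mg/kg again lay above the vehicle arrays, the closest pair being replicate 3 at 50 mg/kg and vehicle replicate 1. The rise was 1.80-fold (log2 change 0.84, SE 0.17, limma adjusted p = 0.0180). It read 6.15, 5.96, 5.55, 6.48 and 5.75 at 0.1 mg/kg and 6.49, 6.45, 6.74, 6.49 and 6.60 at 15 mg/kg, and both of these groups overlapped vehicle. Over the 20 arrays the values of the 2 Me1 probe sets had a Pearson r of 0.878 (Spearman 0.809), and r was 0.791 without the 2 arrays farthest from the median. This is a description of probes that read one transcript in the same libraries.

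Vehicle replicate 1 was the highest vehicle array for both Me1 probe sets, and without it the log2 changes at 50 mg/kg were 0.91 (adjusted p = 0.00150) and 0.95 (adjusted p = 0.00831). With any 1 of the 20 arrays left out, the brighter probe set kept its call, with log2 changes of 0.74 to 0.91. The dimmer one lost it without vehicle replicate 2 (0.76, adjusted p = 0.0500), also when the array left out was replicate 4 at 50 mg/kg (0.78, adjusted p = 0.0618), and in a fit of the 50 mg/kg and vehicle arrays alone (adjusted p = 0.0651). Both lost it when the 10 arrays with muscle, pancreas or brown fat transcripts were left out, which kept 2 arrays at 50 mg/kg and 4 in vehicle. The log2 changes were then 0.66 (adjusted p = 0.431) and 0.66 (adjusted p = 0.378). Within the 50 mg/kg group, replicates 1 and 4 had the highest muscle list means (7.64 and 7.94) and the highest Me1 on both probe sets. Replicate 3 had the next highest muscle list mean (6.60) and the lowest Me1 of that group on both (7.35 and 6.85). Over all groups the muscle mean was highest on replicate 4 at 0.1 mg/kg (9.91), replicate 3 at 15 mg/kg (9.85) and vehicle replicate 2 (9.46). There the brighter Me1 probe set read 6.53, 6.99 and 6.68, and the dimmer one 6.48, 6.74 and 6.03. For the dimmer one these were the highest of their groups at 0.1 and 15 mg/kg and the lowest in vehicle. The part of muscle in the Me1 result was not tested further.

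**Figure D2:**
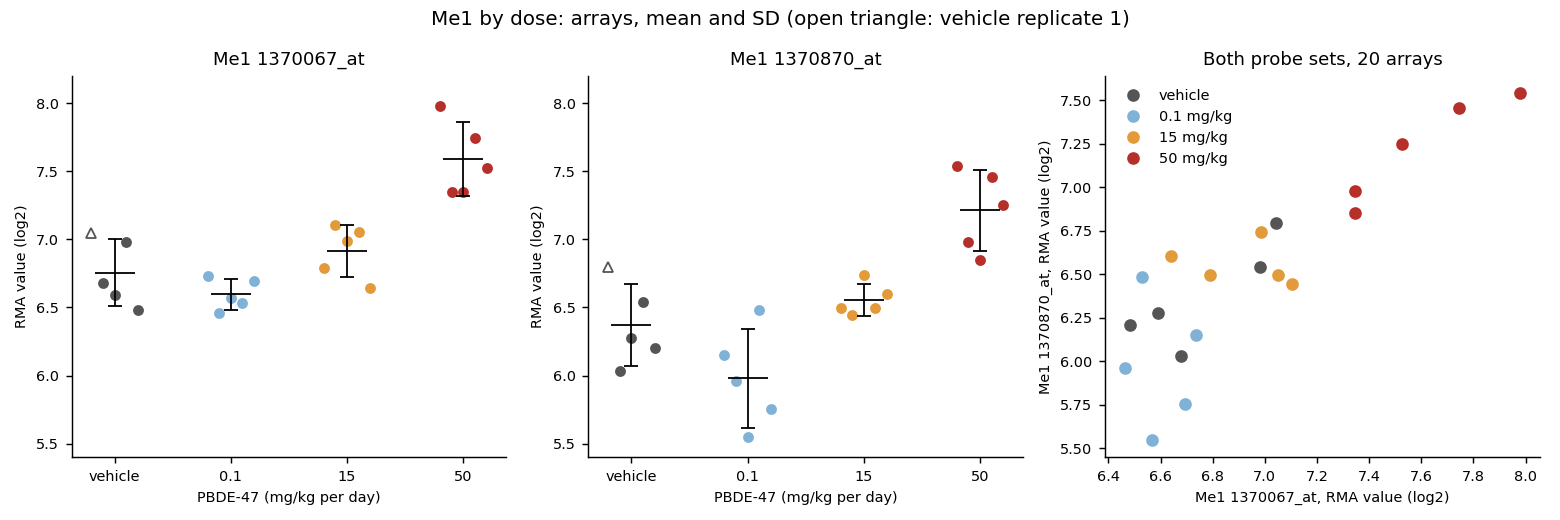
Me1 on its 2 probe sets by dose (left and middle; dots are arrays, bars mean and SD of 5 arrays, open triangle vehicle replicate 1), and the probe sets against each other on the 20 arrays (right), all as deposited log2 values. The 50 mg/kg arrays hold the top of both axes, from 7.35 to 7.98 and from 6.85 to 7.54.

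At the lower doses Me1 did not pass. At 0.1 mg/kg the log2 changes of the brighter and dimmer probe sets were -0.16 (95% interval -0.43 to 0.11, adjusted p = 0.856) and -0.39 (-0.74 to -0.04, adjusted p = 0.680). At 15 mg/kg they were 0.16 (-0.11 to 0.43, adjusted p = 0.645) and 0.19 (-0.16 to 0.53, adjusted p = 0.683). All 5 arrays at 50 mg/kg lay above all 5 at 15 mg/kg on both probe sets. The share of all probe sets without overlap was not counted for 50 against 15 mg/kg, so how unusual this separation is cannot be told. That contrast gave log2 changes of 0.67 (95% interval 0.41 to 0.94) and 0.66 (0.31 to 1.01) but adjusted p of 0.525 and 0.741, in a comparison where 0% of all probe sets were called. The brighter one had the second smallest unadjusted p of all 31042. When p-values were adjusted over all 5 contrasts at once, it passed with an adjusted p of 0.0247. How many of all probe sets passed in this contrast under that adjustment was not counted.

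A slope per step of the dose order (vehicle, 0.1, 15 and 50 mg/kg) asked for a trend. It was called for the same 2 of 16 probe sets, both higher, where 0.96% of all probe sets were called higher and 1.45% either way. The Me1 slopes were 0.28 log2 units per step (SE 0.04, adjusted p = 0.000685) and 0.31 (SE 0.05, adjusted p = 0.00362), although the means at 0.1 mg/kg lay below those of vehicle. Both slope calls held with any single array left out and ended, at 0.24 and 0.29, without the 10 arrays that carried other tissues.

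Acly, the citrate-splitting enzyme at the head of the route, read 9.97, 10.23, 10.29, 10.47 and 10.07 at 50 mg/kg, against 9.40, 10.11, 10.09, 9.93 and 9.91 in vehicle. Replicates 2, 3 and 4 at 50 mg/kg exceeded every vehicle array, while the groups as a whole overlapped. The log2 change was 0.32 (95% interval 0.06 to 0.58, limma adjusted p = 0.270), and 0.20 (-0.03 to 0.42) without vehicle replicate 1. At 0.1 and 15 mg/kg it was 0.03 and -0.03, with intervals of -0.23 to 0.29 and -0.29 to 0.23.

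The carboxylases that make malonyl-CoA lay close to vehicle at each dose. Acaca, the cytosolic form, read 8.59, 8.83, 8.98, 8.95 and 8.85 on probe set 1370893_at at 50 mg/kg, against 8.32, 8.94, 9.02, 8.83 and 8.76 in vehicle, and the groups overlapped. The log2 change was 0.06 (95% interval -0.17 to 0.30), and -0.05 without vehicle replicate 1. The other Acaca probe set, 1387538_at, stayed between 4.09 and 4.63 and had a Pearson r of -0.138 (Spearman -0.0902) with the brighter one over 20 arrays. Acacb encodes the mitochondrial form whose malonyl-CoA restrains fatty acid oxidation. Its probe set stayed between 4.04 and 4.54 on every array, with a log2 change of 0.01 (-0.18 to 0.20) at 50 mg/kg. At such dim levels RMA values hold much background and understate a change.

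Fasn, the synthase itself, read 8.78, 9.23, 9.40, 9.55 and 9.29 on probe set 1367708_a_at at 50 mg/kg, against 7.81, 9.59, 9.50, 9.53 and 9.30 in vehicle. Vehicle replicate 1 stood far below, and the other 4 vehicle arrays spanned 9.30 to 9.59. The log2 change at 50 mg/kg was 0.11 (95% interval -0.42 to 0.63, limma adjusted p = 0.910) with all arrays and -0.23 (-0.53 to 0.07) without vehicle replicate 1. Probe set 1367707_at gave 0.04 and, without that array, -0.25 (-0.60 to 0.10), so that the sign of both rested on 1 vehicle array. At 0.1 mg/kg Fasn read 9.25, 9.11, 9.24, 9.29 and 9.15 on the brighter probe set, the narrowest of its groups (SD 0.08, n = 5), with a log2 change of 0.06 (-0.46 to 0.59), and -0.27 without vehicle replicate 1. At 15 mg/kg it read 8.82, 9.31, 8.65, 9.37 and 8.97, with a change of -0.12 (-0.64 to 0.40), and -0.45 (-0.76 to -0.15) without that array. The direction against vehicle was thus negative at each dose once vehicle replicate 1 was left out, with limma adjusted p of 0.908 at 0.1 mg/kg, 0.314 at 15 mg/kg and 0.583 at 50 mg/kg.

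The enzymes that elongate and desaturate fatty acids had the larger differences at 50 mg/kg among the genes that did not pass. Elovl6, which extends palmitate to stearate, read 7.94, 8.21, 8.91, 8.76 and 8.10 at 50 mg/kg on probe set 1388108_at, against 7.88, 7.71, 7.99, 7.90 and 7.83 in vehicle. Replicates 2, 3, 4 and 5 lay above every vehicle array, and replicate 1 lay among them. Probe set 1394401_at read 5.18, 6.58, 6.72, 6.78 and 5.71 at 50 mg/kg, against 5.26, 5.65, 5.89, 5.52 and 5.56 in vehicle, so that replicates 2, 3 and 4 stood apart from replicates 1 and 5. The log2 changes were 0.52 (95% interval 0.10 to 0.95, adjusted p = 0.270) and 0.62 (0.08 to 1.16, adjusted p = 0.308). The first was 0.26 without the 10 arrays that carried other tissues (adjusted p = 0.701). The SD of the second was 0.71 at 50 mg/kg and 0.23 in vehicle (n = 5 each). Replicate 3 at 15 mg/kg was the lowest array on both Elovl6 probe sets, at 7.01 and 4.61.

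Fads1, the delta-5 desaturase of polyunsaturated fatty acids, read 12.02, 12.61, 12.63, 12.86 and 12.21 at 50 mg/kg, against 11.27, 12.32, 12.01, 12.08 and 11.88 in vehicle. Replicates 2, 3 and 4 again lay above every vehicle array. The log2 change was 0.56 (95% interval 0.17 to 0.95, adjusted p = 0.192), the smallest adjusted p among the lipogenic probe sets that did not pass, and 0.40 (0.04 to 0.75) without vehicle replicate 1. Fads2, the delta-6 desaturase, read 9.75, 10.95, 10.77, 10.67 and 10.37 at 50 mg/kg, against 9.38, 10.63, 9.90, 9.87 and 10.27 in vehicle, and the groups overlapped. Its change was 0.49 (0.01 to 0.98, adjusted p = 0.377), and 0.34 (-0.15 to 0.82) without vehicle replicate 1 and 0.81 without the 10 arrays (adjusted p = 0.575). Replicate 1 at 50 mg/kg was the lowest array of its group for Acly, Acaca 1370893_at, Fads1, Fads2 and both probe sets of Fasn and Elovl6, and it was the highest of its group for both Me1 probe sets.

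**Figure D3:**
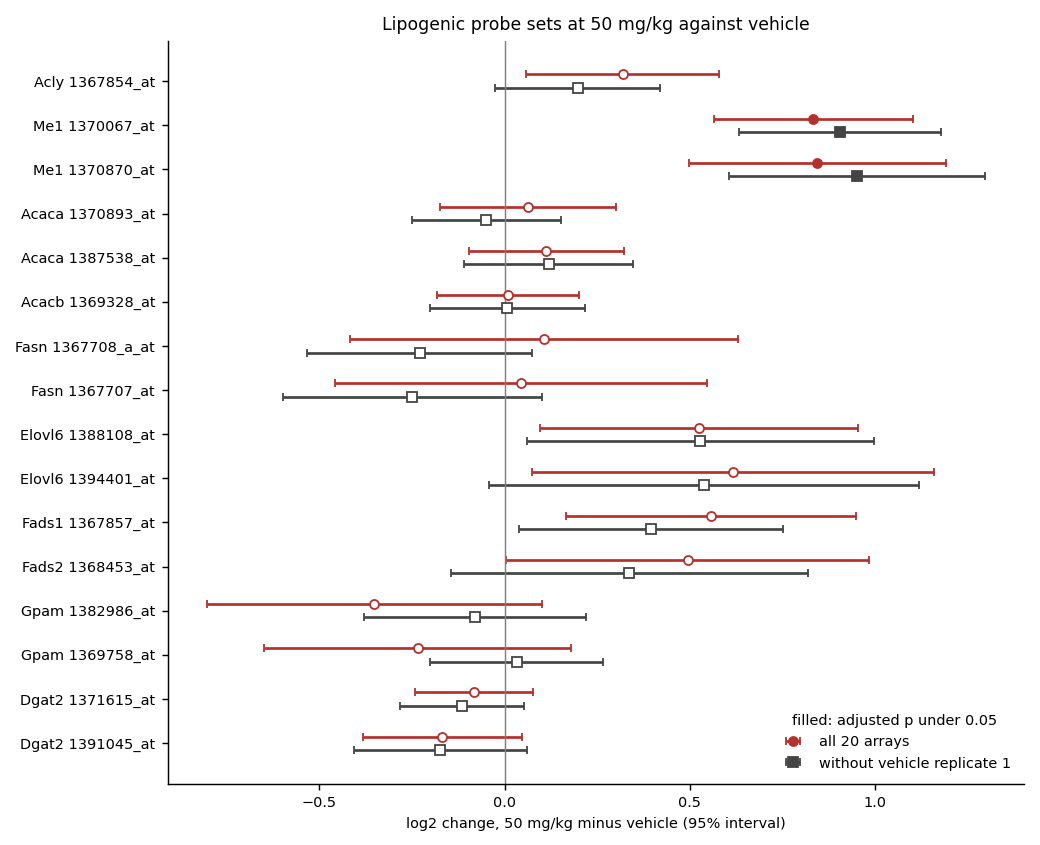
Log2 change at 50 mg/kg against vehicle for the 16 lipogenic probe sets with 95% intervals from limma, for all 20 arrays (circles) and without vehicle replicate 1 (squares). Filled symbols passed an adjusted p of 0.05, as both Me1 probe sets did in both fits; the Fasn probe sets are at 0.11 and 0.04 with all arrays and at -0.23 and -0.25 without that one.

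The acyltransferases of glyceride synthesis did not pass at any dose. Gpam, the mitochondrial glycerol-3-phosphate acyltransferase, read 6.00, 6.01, 5.85, 6.10 and 5.89 on probe set 1382986_at at 50 mg/kg, against 7.41, 6.03, 6.20, 6.22 and 5.74 in vehicle. Probe set 1369758_at read 5.38, 5.60, 5.22, 5.55 and 5.28 at 50 mg/kg, against 6.71, 5.39, 5.31, 5.51 and 5.28 in vehicle. Vehicle replicate 1 stood alone above all others on both. The log2 changes of -0.35 (95% interval -0.80 to 0.10) and -0.23 (-0.65 to 0.18) became -0.08 (-0.38 to 0.22) and 0.03 (-0.20 to 0.27) without it. Dgat2, which adds the last acyl chain of triacylglycerol, spanned 10.53 to 10.92 on probe set 1371615_at and 9.00 to 9.83 on probe set 1391045_at. Its changes at 50 mg/kg were -0.08 (-0.24 to 0.08) and -0.17 (-0.38 to 0.05).

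Across the members the lower doses gave no call. At 0.1 mg/kg 0 of 16 probe sets passed with limma, 0% of all probe sets were called, and 1 of 16 (Me1 1370870_at) had an unadjusted p under 0.05, beside 2134 of 31042 across the array. The log2 changes lay between -0.39 (Me1) and 0.19 (Fads2), with a median of 0.06 where all probe sets had 0.01. Without vehicle replicate 1 they lay between -0.28 (Me1) and 0.11 (Dgat2), with a median of -0.06, and 0 of 16 had an unadjusted p under 0.05. At 15 mg/kg 0 of 16 passed and 0 had an unadjusted p under 0.05, beside 0.116% of all probe sets called and 3769 at that unadjusted level. Changes there ran from -0.33 (Gpam) to 0.19 (Me1), with a median of 0.00. Without vehicle replicate 1 they ran from -0.52 (Fasn 1367707_at, 95% interval -0.87 to -0.18) to 0.29 (Me1), with a median of -0.03. Both Fasn probe sets then had an unadjusted p under 0.05 but did not pass (adjusted p = 0.314 and 0.313). Between 50 and 15 mg/kg 0 of 16 passed and 6 had an unadjusted p under 0.05, beside 1749 across the array. Those 6 were both probe sets of Me1 and of Elovl6 (0.48 and 0.91), Acly (0.34) and Fads1 (0.43). The 3 comparisons with vehicle share the same vehicle arrays, and those of 50 mg/kg share the same 50 mg/kg arrays.

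Vehicle replicate 1 set the spread of several members. Against the mean of the other 4 vehicle arrays it was lower by 1.67 and 1.46 log2 units for Fasn, and 26 and 40 of the 31042 probe sets were lower still. Fads1 was lower by 0.81, Fads2 by 0.78, Acly by 0.61 and the brighter Acaca probe set by 0.56. Gpam was higher by 1.36 and 1.34, with 37 and 39 probe sets higher still, and Me1 was higher by 0.36 and 0.53. Srebf1, which encodes SREBP-1, read 7.61 on that array and 9.36 to 9.50 on the other vehicle arrays. On vehicle replicate 1 the list means were 4.45 for muscle and 4.14 for pancreas, at the low end of both ranges.

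**Figure D4:**
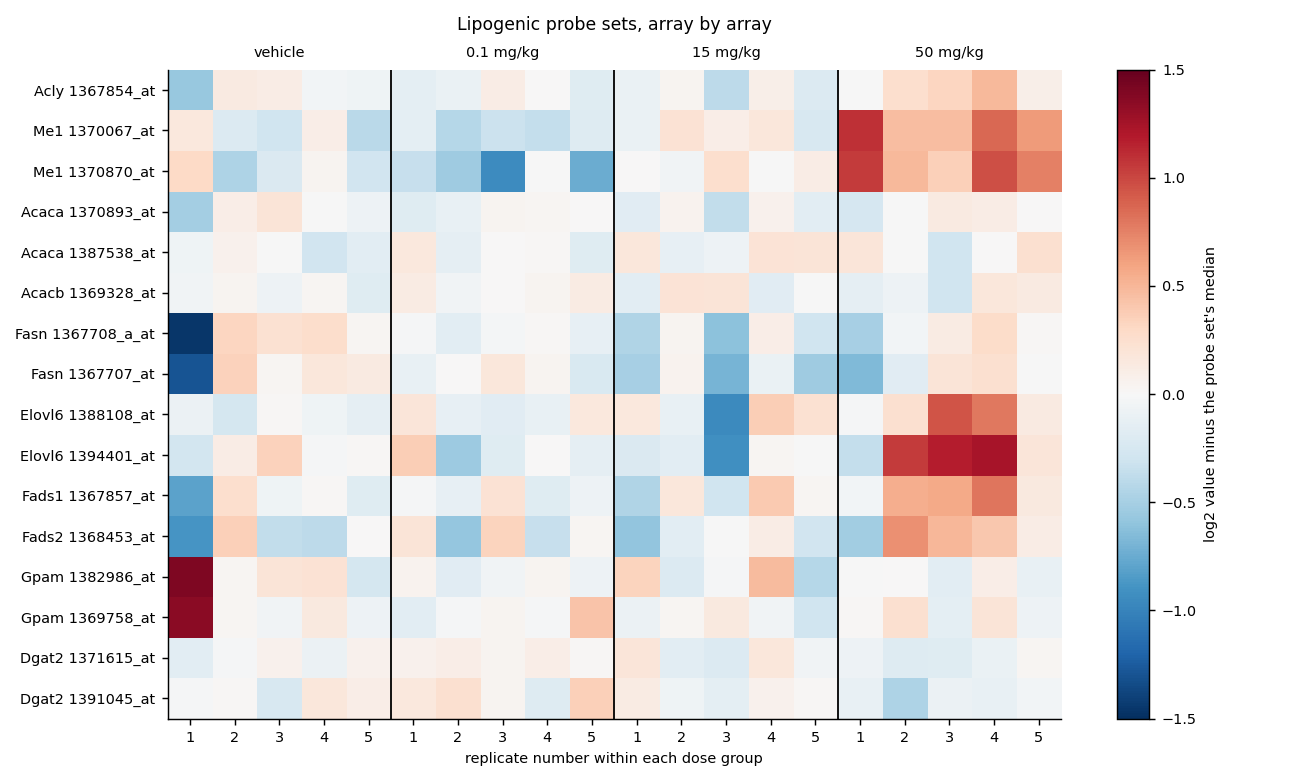
Deposited log2 value minus the probe set's median over the 20 arrays, for the 16 lipogenic probe sets (rows) on each array (columns, by dose group and replicate number). Vehicle replicate 1 is dark blue for Fasn and dark red for Gpam, and the 5 arrays at 50 mg/kg are red for both Me1 probe sets.

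Within the dose groups several members moved together from array to array. With each group's mean taken off, Fasn 1367708_a_at had a Pearson r of 0.907 with Acaca 1370893_at, 0.882 with Acly and 0.838 with Fads1 over the 20 arrays (Spearman 0.829, 0.824 and 0.797). Without vehicle replicate 1, and with the group means taken anew, these were 0.867, 0.828 and 0.839. Without the 2 arrays whose Fasn deviation lay farthest from the median deviation they were 0.824, 0.795 and 0.767. There the group means still included those 2 arrays, so these r are not purely within groups. Fads2 had 0.593 (0.481 without vehicle replicate 1, 0.299 without the 2 farthest). Elovl6 had 0.307 and 0.530, and 0.618 and 0.722 without vehicle replicate 1. Gpam had -0.632 and -0.758 with all arrays but 0.206 and -0.0294 without vehicle replicate 1, so its relation rested on that array. Me1 did not follow Fasn, with r of -0.320 and -0.459, and 0.0035 and -0.212 without vehicle replicate 1. Of the 15 pairs computed, the other Fasn probe set had an r of 0.958. The remaining ones, Acaca 1387538_at, Acacb and both probe sets of Dgat2, had r of -0.0775, 0.0911, 0.303 and 0.0101. These are descriptions over arrays that share a scale and a normalization.

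**Figure D5:**
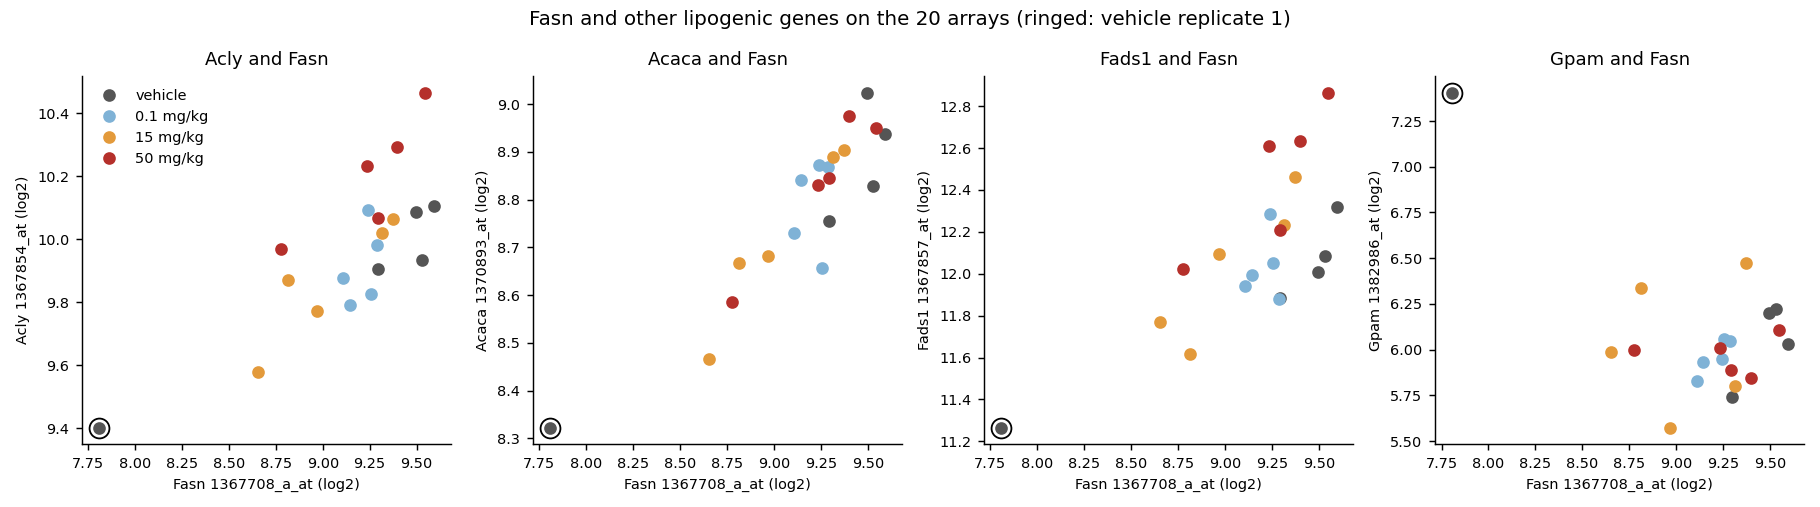
Acly, Acaca, Fads1 and Gpam (vertical axes) against Fasn (horizontal axes) on the 20 arrays, each as the deposited log2 value of its brighter probe set, coloured by dose, with vehicle replicate 1 ringed. Acly, Acaca and Fads1 climb with Fasn within the groups, and for Gpam the ringed array alone sets the slope.

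The genes outside the list whose values were most like those of Me1 over the 20 arrays were Ppcs (r = 0.876), Gstt3 (0.869), Gadd45b (0.869), Plaa (0.841) and Aldh1a1 (0.837), with 0.884, 0.871, 0.882, 0.852 and 0.837 without vehicle replicate 1. Ppcs acts in coenzyme A synthesis, Gstt3 is a glutathione transferase and Aldh1a1 oxidizes retinaldehyde. At 50 mg/kg against vehicle Ppcs, Gstt3, Gadd45b and Aldh1a1 rose as well (log2 changes 0.60, 0.52, 0.86 and 1.99), and Plaa did not pass (0.24, adjusted p = 0.138). The genes most like Fasn were Fdps (r = 0.856), Lss (0.854), Srebf2 (0.836), Srebf1 (0.825) and Sqle (0.825). Fdps, Lss and Sqle are enzymes of cholesterol synthesis and Srebf2 encodes its main transcription factor. Without vehicle replicate 1 these r fell to 0.582, 0.695, 0.520, 0.465 and 0.517, so that likeness rested in good part on 1 array. Without the 2 arrays farthest from the Fasn median they were 0.397, 0.547, 0.285, 0.456 and 0.207. The choice of the highest r among all genes makes these values high by construction. Group means were not taken off here, unlike for the pairs of members with Fasn. A change at 50 mg/kg shared with Me1 was thus itself part of what picked the genes most like it.

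Further genes of the pathway were read from lists of regulators, suppliers of carbon and NADPH, desaturases and elongases, and enzymes of glyceride synthesis and storage, each gene by its brightest probe set. Among 16 regulators 0 passed with limma at 50 mg/kg and 3 had an unadjusted p under 0.05, with a median log2 change of 0.06 beside 0.01 for all probe sets. Srebf1 had 0.43 (95% interval -0.12 to 0.98), which was 0.07 without vehicle replicate 1. Insig2, which holds SREBP in the endoplasmic reticulum, had 0.69 (0.17 to 1.22, adjusted p = 0.223) and 0.10 without the 10 arrays that carried other tissues (adjusted p = 0.955). The liver X receptor gene Nr1h2 had -0.38, which was -0.23 without them and likewise without replicate 1 at 50 mg/kg, and Thrsp, a thyroid hormone responsive lipogenic regulator, had 0.32 (adjusted p = 0.209).

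Of 12 measured genes of carbon and NADPH supply 0 passed with limma at 50 mg/kg by the brightest probe set and 4 had an unadjusted p under 0.05, with a median of -0.03. The pyruvate kinase gene Pklr, which feeds glycolytic carbon into this route, had -0.46 (95% interval -0.74 to -0.19, adjusted p = 0.104) and a slope of -0.19 per dose step that was called lower (adjusted p = 0.0224). Its second probe set, 1387263_at, fell at 50 mg/kg (log2 change -0.49, SE 0.11, adjusted p = 0.0481), averaging 7.22 ± 0.22 at 50 mg/kg and 7.70 ± 0.25 in vehicle (SD, n = 5 each). That call ended in 17 of the 20 fits that left out 1 array. The slope of that probe set, -0.20 (adjusted p = 0.00673), held in all 20, and that of the brighter one ended in 5 of them, each of which lacked vehicle replicate 2, 3 or 5 or, at 50 mg/kg, replicate 1 or 4. Both slope calls ended without the 10 arrays that carried other tissues, at -0.11 for the brighter probe set (adjusted p = 0.674) and -0.16 for the other (adjusted p = 0.511), as did the call at 50 mg/kg (-0.34, adjusted p = 0.668). The brighter probe set was then at -0.22 at 50 mg/kg. The slope call of the brighter one also ended with adjustment over all 5 contrasts (adjusted p = 0.0544). The citrate carrier gene Slc25a1 had 0.58 (0.26 to 0.89, adjusted p = 0.0785). It passed with the first digit of the arrays' description numbers as a block (adjusted p = 0.0432), with the filter at a mean of 6 (0.0466) and when either replicate 1 at 50 mg/kg (0.0368) or vehicle replicate 4 (0.0454) was dropped. The NADPH-forming isocitrate dehydrogenase gene Idh1 had 0.30 (adjusted p = 0.0937) and the pyruvate carboxylase gene Pc had -0.34 (adjusted p = 0.204).

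Of 12 measured desaturation and elongation genes 0 passed with limma at 50 mg/kg and 4 had an unadjusted p under 0.05, with a median of 0.04. Hsd17b12, an enzyme of the elongation cycle, had 0.27 (adjusted p = 0.0971) and passed with the description digit as a block (adjusted p = 0.0439). The elongase gene Elovl5 had 0.33, the acyl-CoA synthetase gene Acsl3 0.36 and the desaturase gene Scd2 -0.35 (adjusted p = 0.155). Without the 10 arrays that carried other tissues Hsd17b12 was at 0.11 and Elovl5 at 0.13. Of 18 measured genes of glyceride synthesis and storage 0 passed with limma and 2 had an unadjusted p under 0.05, with a median of 0.03. The lipid droplet gene Cidec had 0.37 (adjusted p = 0.182), the lipin gene Lpin1 -0.33, the lipase gene Pnpla2 -0.22 and Dgat1, the other acyltransferase of the last step, 0.20. Pnpla2 was at -0.14 and Dgat1 at 0.31 without vehicle replicate 1, and Lpin1 at -0.21 without vehicle replicate 5 and at -0.51 without the 10 arrays. Of the 58 genes in these 4 lists 0 passed with limma at 0.1 mg/kg and 0 at 15 mg/kg, with 1 and 5 at an unadjusted p under 0.05, and over the dose order Pklr was the one that passed.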

How the data were processed

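The authors deposited log2 values for 31099 probe sets on each of the 20 arrays, made with RMA per the submitters' processing notes. RMA subtracts background, makes the arrays' distributions alike and summarizes probes, so it compresses bright and dim values. Its version is not given in the sources used here. After 57 control probe sets were dropped, 31042 were tested without a filter. The platform annotation gave 1 gene symbol to 20826 of them, several to 436 and no name used here to 9780. Array medians were 5.605 to 5.648.

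One limma model (version 3.58.1, R 4.3.3, lmFit and eBayes) with a mean per dose group was fitted to all 20 arrays. Adjusted p-values are Benjamini-Hochberg per contrast over 31042 probe sets, called under 0.05, two-sided, with 95% intervals. The study's own analysis used R/maanova at the same false discovery rate. That analysis was not used here. Code was tested on simulated data.

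The members, the 4 pathway lists and the 8 lists of cell markers were chosen with earlier results of these data known. Named were all members, any list gene called in 1 of the 5 contrasts, the 4 smallest p at 50 mg/kg per list, and the 5 genes most correlated with Me1 and with Fasn. Some list genes were not analysed here, Tecr and Gpat3 among them. The fetal liver list mean was 11.24 to 11.83.

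Alternatives were blocks for the replicate number and for the first digit in each array's description number, a fit of only the groups compared, equal array medians, a filter at a mean of 6, array weights, an intensity trend with robust shrinkage, adjustment over all 5 contrasts, each array left out and, chosen after seeing the data, the arrays with other tissues left out. Promoter sequences are RefSeq's, and figures were drawn with matplotlib.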

Additional observations from a re-analysis of the deposited data

Results flagged for a closer look

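In 64 groups of 5 arrays (16 probe sets at 4 doses), 7 had 1 array farther from the rest than Dixon's critical value of 0.71 allows, and chance alone flags about 1 in 20 groups. Of these, 5 were vehicle replicate 1: Fasn at 7.81 (other vehicle arrays 9.30 to 9.59) and 5.95 (7.27 to 7.59), Acly at 9.40 (9.91 to 10.11), and Gpam at 7.41 (5.74 to 6.22) and 6.71 (5.28 to 5.51). Replicate 3 at 15 mg/kg, which carried muscle, pancreas and brown fat transcripts, read 4.61 on Elovl6 1394401_at (the other 4 arrays 5.32 to 5.56). Replicate 2 at 50 mg/kg read 9.00 on Dgat2 1391045_at (the other 4 arrays 9.35 to 9.42).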

How the results depend on the processing

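Of 2186 values from 9 alternatives and 20 left-out arrays for 76 results, 2088 kept their direction and their side of the threshold. The count of 2 lipogenic probe sets called at 50 mg/kg was 1 with only the groups compared, 0 without the arrays with muscle, pancreas or brown fat transcripts, and 1 to 2 with 1 array left out. The slope count of 2 was 0 without the arrays with other tissues and stayed at 2 with any 1 array left out. At 50 against 15 mg/kg the count was 1 with adjustment over the 5 contrasts together, and 0 otherwise. The share of all probe sets called there under that adjustment was not counted. The 0.1 and 15 mg/kg counts were 0 under every alternative run. With the replicate number as a block the counts at 50 mg/kg and of the slope stayed at 2, and the one call lost was that of Pklr 1387263_at at 50 mg/kg (adjusted p = 0.0892). The numbers were not taken as a pairing, since 10 of 30 same-numbered pairs had deviations that correlated over 0.1 (median r 0.0012) and 4 of 20 arrays correlated best with their own number. When the block was the leading digit of each array's description number, both counts also stayed at 2, while Slc25a1 and Hsd17b12 at 50 mg/kg passed (adjusted p = 0.0432 and 0.0439) and Pklr 1387263_at did not (0.0757). That last call also ended with only the groups compared (0.188), equal array medians (0.0561), array weights (0.0523) and adjustment over the 5 contrasts (0.0835). Leaving out the arrays with other tissues kept 1 array at 0.1 mg/kg, assumed to vary like the other groups. The filter at a mean of 6 gave no value for dimmer probe sets. The causes of the changes were not tested.

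Sign changes were limited to lipogenic probe sets that were not called. With array weights, Acly, Acaca 1370893_at and Fasn 1367708_a_at at 0.1 mg/kg were at -0.014, -0.026 and -0.053, Fads1 and Fads2 at 15 mg/kg at -0.012 and -0.036, and Fasn 1367707_at at 50 mg/kg at -0.0029. Without the arrays with other tissues, Acly, Acaca 1370893_at, Fasn 1367708_a_at, Fasn 1367707_at and Dgat2 1391045_at at 15 mg/kg were at 0.15, 0.088, 0.14, 0.057 and 0.040, and Elovl6 1388108_at at 0.1 mg/kg at -0.099. With 1 array left out at a time, the ranges at 0.1 mg/kg were -0.095 to 0.081 (Acly), -0.093 to 0.083 (Acaca 1370893_at), -0.27 to 0.18 (Fasn 1367708_a_at), -0.19 to 0.22 (Fasn 1367707_at), -0.043 to 0.22 (Fads1) and -0.32 to 0.042 (Gpam 1369758_at). At 15 mg/kg they were -0.15 to 0.045 (Acly), -0.16 to 0.012 (Acaca 1370893_at), -0.063 to 0.27 (Elovl6 1388108_at), -0.038 to 0.23 (Fads1), -0.084 to 0.23 (Fads2), -0.039 to 0.059 (Dgat2 1371615_at) and -0.068 to 0.035 (Dgat2 1391045_at). At 50 mg/kg they were -0.049 to 0.13 (Acaca 1370893_at), -0.043 to 0.074 (Acacb), -0.23 to 0.22 (Fasn 1367708_a_at), -0.25 to 0.19 (Fasn 1367707_at) and -0.32 to 0.033 (Gpam 1369758_at).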
